A study of Mus musculus with 4 samples.

Results

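LSK cells are the bone marrow cells that carry no lineage antigens and carry Sca-1 and Kit, and they hold the blood stem cells and the earliest multipotent progenitors of the mouse. The comparison described here is of LSK cells 10 days after transplantation with LSK cells of healthy marrow, at day 0. Its members are the 16479 genes, of 29391 with a usable probe, whose probe the scanner software called well above background on both arrays. Each gene is represented by its brightest probe. The study compared stem cells, and the CD45-negative cells around them, in a mouse model of transplantation stress, and deposited 4 arrays in all.

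All mice were C57BL6/J and 7 weeks old, and every sample came from bone marrow. For day 10, recipients carrying the CD45.1 form of the pan-blood-cell antigen CD45 received 700 cGy of radiation, described as sublethal, and then 30000 LSK cells from CD45.2 donors through a tail vein. Day 10 was when the submitters had seen the most stem cell proliferation, and the design text says that the donor cells were the ones sorted. For day 0, LSK cells were sorted from healthy mice that had been neither irradiated nor transplanted. Irradiation, transplantation, the CD45 sort and time therefore all separate the 2 groups and cannot be told apart. Neither the number of mice behind each sample nor their sex is given in the sources used here. The other 2 arrays, used below only for values side by side, hold CD45-negative marrow cells of the same 2 days, labelled as stromal cells. At day 10 that sort is given as negative for CD45.1, the recipient form, which does not by itself remove CD45.2 donor blood cells, and the antibody used at day 0 is not given in the sources used here. Ptprc, the gene of CD45, was above background on both of these arrays, at levels of 3.10 and 5.58 (levels are defined below), so their values are not those of a sort shown to be free of blood cells.

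Each group was 1 array, so no difference below has a test, a standard error or a replicate check, and "2-fold" is a size and not a call of change. A level is the log2 of a probe's processed signal minus the 75th percentile of all probes of that array other than controls, so that 0 is a fairly bright probe. A difference is the day 10 level minus the day 0 level, in log2 units, and a difference of 1 is 2-fold. Levels of different genes come from different probes and cannot be ranked against each other. In RNA from a sorted pool, fewer cells of a type and less RNA per cell cannot be told apart.

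Blood stem cells are rare and mostly at rest in healthy marrow. After transplantation into irradiated mice they home to the marrow, divide and refill the blood. LSK cells as a population already contain progenitors that have begun to switch on granulocyte, lymphoid, or platelet and red cell genes, which is called lineage priming. Interferons and other inflammatory signals are known to act on these cells directly.

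Between the LSK arrays the level of a typical gene was nearly the same. The median difference was -0.005, 81.9% of genes differed by less than 0.5, and 8129 genes (49.3%) had a difference above 0. At least 2-fold higher at day 10 were 241 genes (1.46%), and at least 2-fold lower were 432 (2.62%), together 673 (4.08%), so that 35.8% of the genes past 2-fold were higher. That split depends on the centring: it was 46.3% when each array's median over all probes, those not above background included, was set to 0, and 18.4% when 5 spike-in controls set the scale, which shifted every difference by -0.17. Background correction by normexp, which shrinks dim probes, left 74 genes higher (0.449%) and 150 lower (0.91%).

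Dim genes made up much of the 2-fold set. Among genes with a mean level below -2, 9.31% were past 2-fold, against 0.676% of those at 2 or above. From -2 to 0 the share was 6.93%. The counts of list members past 2-fold given below are to be read beside these shares and those over all genes. Different probes of one gene on the same pair of arrays differed in their day 10 minus day 0 value by a pooled SD of 0.341, and by 0.399 where the mean level was below 0. Of the 5156 genes with at least 2 measured probes, 34 (0.659%) had every probe past 2-fold in the same direction. Of the 2-fold genes, 53 higher and 64 lower ones had at least 2 measured probes. Every probe was past 2-fold in 14 and 20 of these, and on the same side of 0 in 44 and 56. The SDs between probes are the sizes of error against which single differences can be read, and they leave out the spread between mice. All 4 arrays lay on 1 slide and carry the same scan time.

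**Figure D1:**
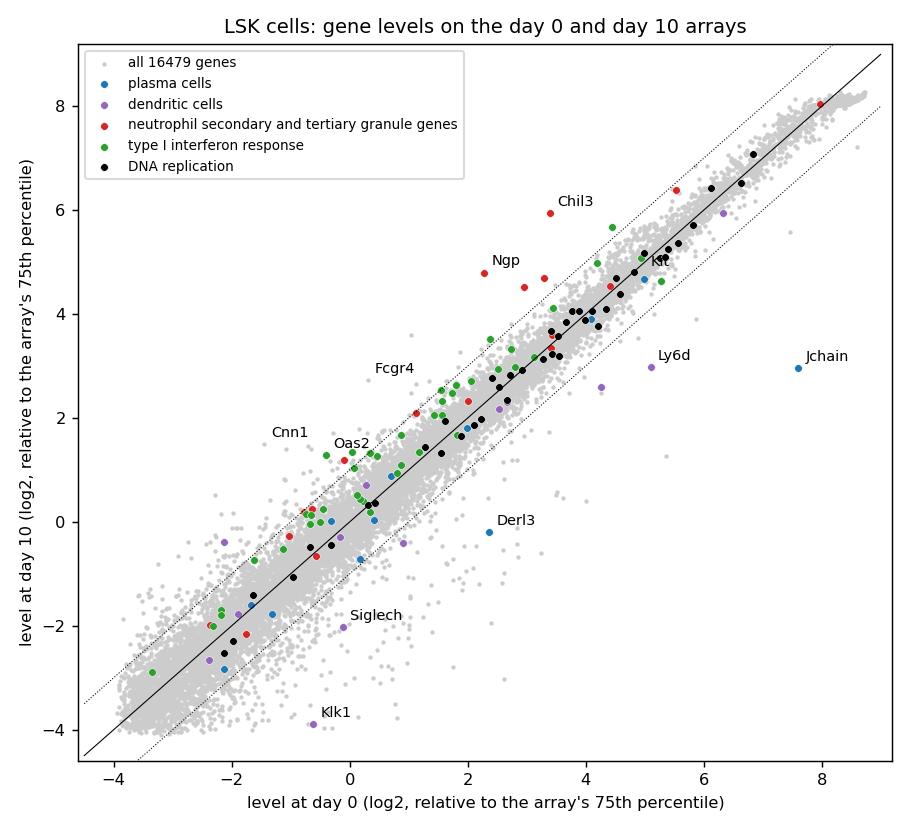
Day 10 level against day 0 level in LSK cells, in log2 units relative to each array's 75th percentile, for the 16479 genes measured on both arrays. Grey points are all genes, coloured points are members of 5 gene lists, and the dotted lines mark a 2-fold difference; most genes lie close to the diagonal, and the points outside the lines are mainly of low level.

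The genes that define the sort were present at both days and differed little. Kit, the stem cell factor receptor, had a level of 4.98 at day 0 and 4.78 at day 10. Ly6a, which encodes Sca-1, was at 2.98 and 2.86, and Cd34 was at 6.57 and 6.47. Ptprc, which encodes CD45, was at 4.18 and 4.25. The genes by which the cells were sorted were thus measured at like levels on both arrays. Of the 16 measured genes of the sort and of stem cell surface, 1 was at least 2-fold lower and none was 2-fold higher, with a median of -0.11.

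Surface genes of the stem cell compartment varied within 2-fold among those named here. Itga2b, the platelet integrin CD41, differed by -0.81, and Procr, the endothelial protein C receptor found on the most primitive stem cells, by -0.66. Cd48, which marks progenitors past the stem cell stage, differed by 0.28, with the other probe at -0.25. Il7r, the interleukin-7 receptor of lymphoid progenitors, was the highest of the set at 0.42. Tek was above background on neither array, and the probes of Slamf1 and Cd38 were above background on different arrays, so no difference is given for these.

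Genes associated with long-term stem cells were mixed. Of 29 measured members, 1 was at least 2-fold higher and 3 were 2-fold lower, 10 had a difference above 0, and the median was -0.14. Among the lower genes were Meis1, a homeobox partner of the Hox proteins, at 0.47 and then -0.64, and Tie1, an endothelial and stem cell receptor, at -0.59 and -1.65. The second probe of Meis1 gave -0.30, and Tie1 was -0.66 after normexp. Robo4, a guidance receptor that helps anchor stem cells, differed by -0.99, and Pdzk1ip1 by -0.95.

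Among other members of the stem cell set, Hlf, Mecom, Msi2 and Mllt3 were within 2-fold. Hlf, a transcription factor of stem cells, was at 2.64 and 2.18, a difference of -0.46. Mecom was at -3.43 and -3.42, near the lowest level called above background (-3.95 and -4.12), which limits its difference. Msi2, an RNA-binding protein, was at 3.71 and 3.70. Mllt3 had a level of 1.87 on both arrays. Sult1a1, a sulfotransferase, was the member past 2-fold upward, at 1.17 (0.54 after normexp). Fgd5, Hoxb5, Tek, Rarb and Clec1a were above background on neither array.

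Genes reported in platelet-biased and aged stem cells included both extremes. Of 18 measured, 2 were at least 2-fold lower and 1 was higher. Selp, which encodes the adhesion receptor P-selectin of platelets and endothelium, went from a level of -1.98 to 0.17, a difference of 2.15 by 1 measured probe. Tm4sf1, an endothelial membrane protein, differed by -1.73 and Cavin2, a caveola protein, by -1.35. Vwf, von Willebrand factor, was at 1.74 and 1.05, with probes at -0.89 and -0.68. Of the 18, 8 had a difference above 0, and the median was -0.09.

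Among the Hox genes and their cofactors, none was 2-fold higher and Meis1 alone was 2-fold lower, of 16 measured. Hoxa9, a Hox gene active in progenitors, differed by -0.10 and Hoxa7 by 0.06. Imprinted genes, several of which are high in resting stem cells, had a median of -0.23 over 13 measured members, 2 of them above 0. Cdkn1c, a cell cycle inhibitor, differed by -0.13, and Phlda2 was the member past 2-fold at -1.13 (-0.50 after normexp).

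Platelet and red cell genes were lower at day 10 as a group. Of 20 measured genes of megakaryocyte-erythroid priming, 3 had a difference above 0, 2 were at least 2-fold lower and none was 2-fold higher, with a median of -0.48 beside -0.005 for all genes. Among the lower ones was Pf4, platelet factor 4, which was at 3.97 and then 2.79, a difference of -1.18. Gata2, a transcription factor of stem cells, mast cells and early megakaryocytes, differed by -0.80 and its second probe by -0.55. Tal1 differed by -0.57 and Gata1, the master regulator of red cell and platelet development, by -0.55. The factors Gfi1b and Zfpm1 differed by 0.17 and 0.24, so the set was not uniformly lower.

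Markers of mature red cells followed the same direction, with 1 of 16 above 0 and a median of -0.62. Rhd, the Rhesus blood group protein, was at 1.92 and 0.46, and Slc4a1, the band 3 anion exchanger, at 1.68 and 0.55. Those were the 2 members past 2-fold, at -1.46 and -1.13. Hbb-bt, an adult beta-globin, differed by -0.73 with 4 probes between -0.73 and -0.29, although globin genes are near copies and a probe may read more than 1. Epor, the erythropoietin receptor, was at 1.78 and 1.26. The summed signal of the 16 markers was at a log2 level of 6.45 at day 0 and 5.78 at day 10. Epb42, a protein of the red cell membrane, was above background on neither array.

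Of 14 measured megakaryocyte and platelet markers, 1 (Selp) had a difference above 0, and the median was -0.56. Treml1 differed by -0.72 and Ppbp, a platelet chemokine, by -0.76 at a level near the lowest measured. Tubb1 and F2rl2 were not above background. The summed level of the 14 was 5.21 and 4.39. How far mature cells in the sort enter these differences was not tested.

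**Figure D2:**
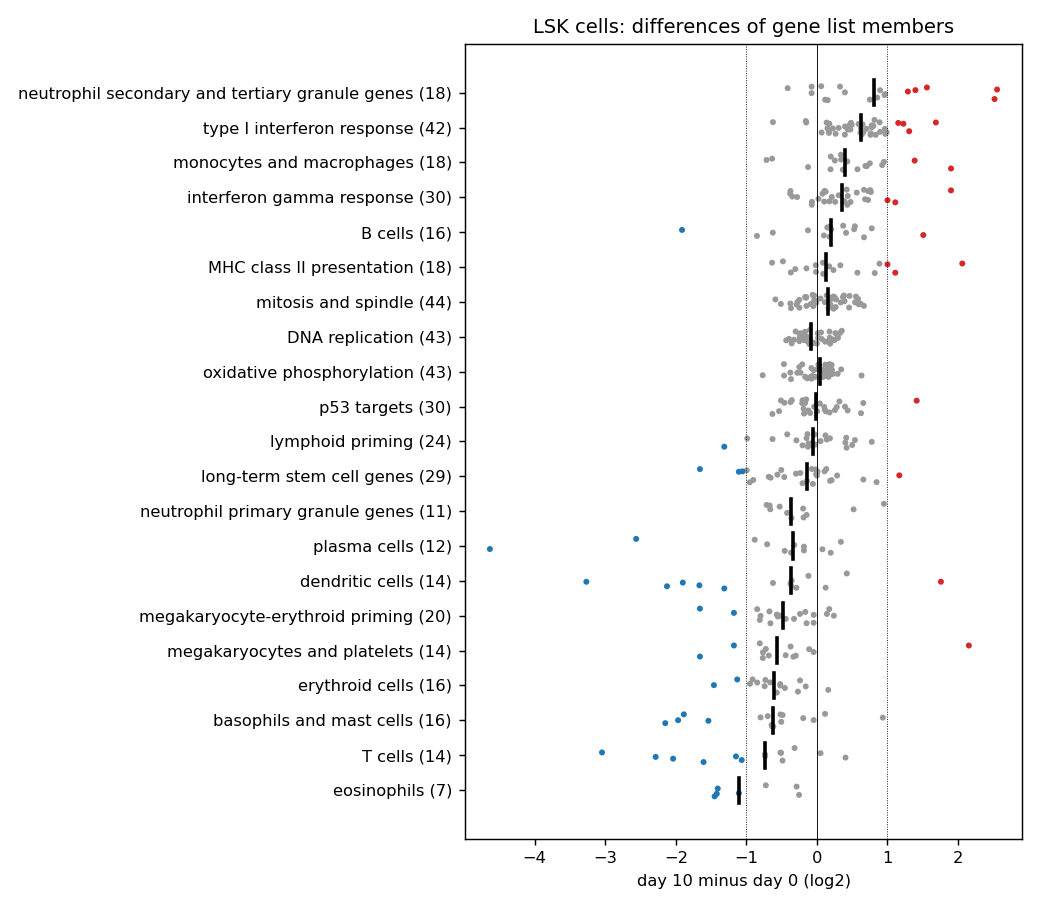
Day 10 minus day 0 difference, in log2 units, of each measured member of 21 gene lists in LSK cells, with the number of members in brackets. A point is 1 gene, red if at least 2-fold higher and blue if at least 2-fold lower, and a black bar is the list's median; interferon and secondary granule genes lie mostly to the right of 0, and red cell, platelet, eosinophil and basophil genes mostly to the left.

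Lymphoid priming genes, those switched on when a progenitor first turns to the B or T lineage, were close to 0 as a set. Of 24 measured, 10 were above 0 and the median was -0.05. Dntt, the terminal transferase of early lymphocytes, was at 7.53 and 7.71, and its 3 probes lay between 0.18 and 0.31. Flt3, the receptor of multipotent progenitors, differed by -0.12, Notch1 by 0.14 and Tcf3 by 0.50. Ikzf1, which encodes Ikaros, differed by -0.99 by 1 measured probe. The member past 2-fold was Ccr9, a gut and thymus homing receptor, at 0.91 and -0.41.

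B cell markers differed little as a set. Of 16 measured, 12 were above 0, 1 was at least 2-fold higher and 1 lower, with a median of 0.19 that was 0.03 on the spike-in scale. Vpreb1, a part of the pre-B cell receptor, was at 7.36 and 7.54, and Vpreb3 was at 6.56 and 6.71. Cd79b, a signalling chain of the B cell receptor, was at 5.36 and 5.89. Rag1, which cuts antigen receptor genes for recombination, differed by 0.78 by its brighter probe and 1.65 by the other. Pax5, the commitment factor of B cells, differed by 1.51 at a low level (0.60 after normexp). The member past 2-fold downward was Fcrla, a B cell Fc receptor-like protein, at -0.18 and -2.09, and Ms4a1, which encodes CD20, differed by -0.62. Cr2 and Fcer2a, markers of mature B cells, were not above background at either day.

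Of 12 measured plasma cell markers, 2 were at least 2-fold lower at day 10, none was 2-fold higher and 3 were above 0, with a median of -0.34. Jchain, the joining chain that links secreted immunoglobulins, was at 7.60 at day 0 and 2.96 at day 10. Its difference of -4.63, or 24.8-fold, was -4.45 by the second probe. Derl3, which removes misfolded proteins from the endoplasmic reticulum of secretory cells, was at 2.36 and -0.20, a difference of -2.56. Tnfrsf17, which encodes the plasma cell survival receptor BCMA, was above background at day 0 and not at day 10, at least 13.3-fold lower. After normexp its difference was -1.81, smaller than that bound. All 3 genes were higher at day 0, Jchain by 2 agreeing probes, and Derl3 and Tnfrsf17 by 1 probe each, with no second probe to check them.

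Entries whose array name begins with Igh, Igk or Igl, Ighmbp names left out, were taken as a set after values were seen. Such names are those of immunoglobulin chains but can take in related genes such as Igll1. Of 10 measured entries, 9 were at least 2-fold lower and the other differed by 0.03. The median was -2.54, and 4 further entries were above background only at day 0. Igh-6, the heavy chain of IgM, differed by -3.63, and Igh-VJ558 by -2.67. The brightest heavy chain probe, Igh, was saturated at day 0, and its other probe differed by -3.30. Among variable segments, Igk-V21-4 differed by -3.51 and Igk-V21-12 by -2.21, and 1 heavy and 2 further kappa segments past 2-fold differed by -3.13, -3.05 and -2.08. Variable segments are near copies of each other, so a probe may read several of them.

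The other plasma cell markers were within 2-fold. Sdc1, the plasma cell surface marker CD138, differed by -0.88 and Prdm1, which drives plasma cell fate, by -0.71. Mzb1 was at 4.09 and 3.90, Xbp1 at 0.70 and 0.89, and Irf4 at -1.68 and -1.60. The summed level of the list was 8.01 at day 0 and 5.85 at day 10, carried mostly by Jchain. Whether plasma cells in the day 0 sort account for this was not tested.

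T cell genes were lower at day 10, although they are antigens that the lineage step of the sort excludes. Of 14 measured T cell markers, 6 were at least 2-fold lower (2 after normexp), none was 2-fold higher, and the median was -0.73. Over all genes 2.62% were lower (0.91% after normexp), and 6.93% of those with a mean level from -2 to 0 were past 2-fold either way. Cd8a, a chain of the killer T cell coreceptor, was at -0.08 and -3.13, a difference of -3.05. Cd3d, a chain of the T cell receptor complex, was at 0.98 and -1.05. Cd8b1 differed by -2.29, Cd3e by -1.61 and Cd6 by -1.15. The 4 genes Cd8a, Cd8b1, Cd3d and Cd3e were also the lineage antigens past 2-fold, of 13 measured.

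T cell signalling genes that natural killer cells also use were within 2-fold, with Lat and Zap70 near the list's median of -0.73. Lck was at 2.14 and 1.65, Lat at 1.87 and 1.14, and Zap70 at -0.43 and -1.16. Tcf7, an early T lineage factor, differed by 0.05 and Bcl11b, which commits T cells, by -0.32 close to background. Cd4, Cd28 and Themis were above background on neither array. The summed T cell level was 4.16 and 3.35.

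Natural killer and cytotoxic markers had a median of -0.27 over 14 measured, with 2 members past 2-fold upward. Gzma, the protease granzyme A of killer cells, was at -1.12 and 0.83, a difference of 1.95. Gzmb, granzyme B, differed by 1.40 (0.92 after normexp). Nkg7, a granule membrane protein, was at 6.10 and 5.86, Klrd1 at 0.97 and 0.32, and Eomes at -0.77 and -0.78. The granzymes were therefore higher while these 3 genes were not.

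Of 14 measured dendritic cell markers, 5 were at least 2-fold lower at day 10, 1 was higher and 3 were above 0. Their median was -0.37, and over all genes 2.62% were lower and 1.46% higher. Siglech, a surface lectin of plasmacytoid dendritic cells, the marrow's specialised interferon producers, was at -0.12 and -2.02, Ly6d at 5.10 and 2.98, and Cox6a2 at 4.26 and 2.59. With Ccr9 and Klk1, these were the lower 5. Klk1, a kallikrein protease, differed by -3.27 by its brighter probe and -0.33 by the other. Tcf4 and Irf8, factors that specify plasmacytoid cells, differed by -0.36 and -0.37, and Bst2, which is also an interferon-induced gene, by -0.62. In the opposite direction, Batf3, a factor of cross-presenting dendritic cells, differed by 1.76 (0.91 after normexp), while Clec9a and Xcr1, the receptors of those cells, differed by 0.42 and 0.12.

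Basophil, mast cell and eosinophil genes were lower at day 10. Of 16 measured basophil and mast cell markers, 4 were at least 2-fold lower beside 2.62% of all genes. None was 2-fold higher, and the median was -0.63. Prss34, a basophil protease, was at 7.47 and 5.58, Mcpt8, another, at 5.87 and 3.90, and Fcer1a, the IgE receptor chain, at 1.08 and -1.07. Cd200r3 was at 0.39 and -1.15, with probes at -1.71 and -1.54. Cpa3 and Hdc, the enzymes of mast cell granules and of histamine synthesis, differed by -0.70 and -0.64. Mcpt4 differed by 0.93, and Cma1, a mast cell chymase, was above background only at day 10, at least 12.0-fold higher. After normexp the difference of Cma1 was 1.66, smaller than that bound. The summed level of the list was 8.53 and 7.36.

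All 7 measured eosinophil markers had a difference below 0, with a median of -1.11 (-0.66 after normexp). Of the 7, 4 were at least 2-fold lower, beside 2.62% of all genes. Epx, eosinophil peroxidase, was at 1.03 and -0.39, and Prg2, the major basic protein, at 4.58 and 3.48. Ear1 and Ear6, eosinophil ribonucleases of a family of near copies, differed by -1.45 and -1.41. Ccr3 and Siglecf, the surface receptors of mature eosinophils, differed by -0.29 and -0.25 at low levels, and Il5ra was not above background. The summed level was 4.92 at day 0 and 3.82 at day 10. The part that mature cells in the sort play in these lists was not tested.

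Neutrophil genes split by the stage at which their granules form. Primary granules are made first, in promyelocytes, and secondary and tertiary granules later, as the cell matures. Of 11 measured primary granule genes, 2 were above 0 and none was past 2-fold, with a median of -0.36. Elane, neutrophil elastase, was at 6.15 and 5.44, Prtn3, proteinase 3, at 4.25 and 3.58, and Ctsg, cathepsin G, at 7.87 and 7.34. Mpo, myeloperoxidase, was saturated on the scanner, so its level has only a bound. Lyz2, lysozyme, which macrophages also make, differed by 0.95.

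Of 18 measured secondary and tertiary granule genes, 15 were above 0 and 5 were at least 2-fold higher, with a median of 0.80 that was 0.50 after normexp. Chil3, a chitinase-like protein, was at 3.39 and 5.94, a difference of 2.55. Ngp, neutrophilic granule protein, was at 2.28 and 4.80, a difference of 2.52. Ltf, lactoferrin, was at 2.96 and 4.51, and its 2 probes gave 1.31 and 1.56. These are the standard secondary granule genes, and each was clearly above background on both arrays. Camp, the cathelicidin antimicrobial peptide, differed by 1.40 and Lcn2, lipocalin 2, by 1.29. S100a8 differed by 0.86, Retnlg by 0.97 and Mmp8, neutrophil collagenase, by 0.90. Mmp9, the gelatinase of tertiary granules, differed by -0.42 and Cxcr2, the receptor of mature neutrophils, by -0.08.

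Surface markers of the most mature neutrophils were low. Ly6g was at -3.31 on both arrays, near the lowest level called above background (-3.95 and -4.12). Cd177 and Fpr1 were above background only at day 10, at least 3.86-fold and 3.13-fold higher. Olfm4 and Arg1 were above background at neither day. The factors that set up granulocyte-monocyte priming differed little, with no member of 24 past 2-fold. Cebpe, which secondary granule genes require, was at 4.64 and 4.41, Cebpa at 1.86 and 1.27, and Gfi1 at 2.31 and 2.11. How far maturing neutrophils in the sort enter the granule genes was not tested; the summed level of 19 neutrophil markers was 9.96 and 9.98, with 2 of the 19, Mpo and S100a9, saturated. Their median of 0.16 was 0.33 without the saturated genes and -0.01 on the spike-in scale.

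Receptors of mature myeloid cells included several of the larger differences. Of 41 measured Fc and paired receptors, 7 were at least 2-fold higher and 4 lower, beside 1.46% and 2.62% of all genes. Fcgr4, an activating IgG receptor, was at 0.31 and 2.72, a difference of 2.42, and Fcgr1, the high-affinity IgG receptor, was at -1.10 and 0.80. Sirpb1, a signal-regulatory protein from a family of near copies that the probes may not separate, was at -1.08 and 1.41, with 4 probes between 2.25 and 2.51. These 3 genes had moderate day 10 levels. Cd300ld3, Clec4a3, Treml4 and Cd300c2, receptors of myeloid gene clusters, differed by 2.25, 1.80, 1.65 and 1.29. The 4 lower members, Fcer1a, Fcrla, Siglech and Cd200r3, are the basophil, B cell and plasmacytoid receptors described above. Tyrobp, the shared signalling adaptor of many of these receptors, was at 5.05 and 4.76.

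Monocyte and macrophage markers were higher more often than not, with 15 of 18 above 0 and a median of 0.40. Adgre1, the F4/80 antigen, was at -0.55 and 0.83 and with Fcgr1 formed the 2 past 2-fold. The complement genes C1qb and C1qc, made by tissue macrophages, differed by 0.57 and 0.92, and F13a1 by 0.69. Cd5l and Vcam1, which marrow macrophages of red cell islands carry, differed by -0.71 and -0.63. Mertk and Mrc1 were not above background. The summed level was 7.60 and 7.93.

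**Figure D3:**
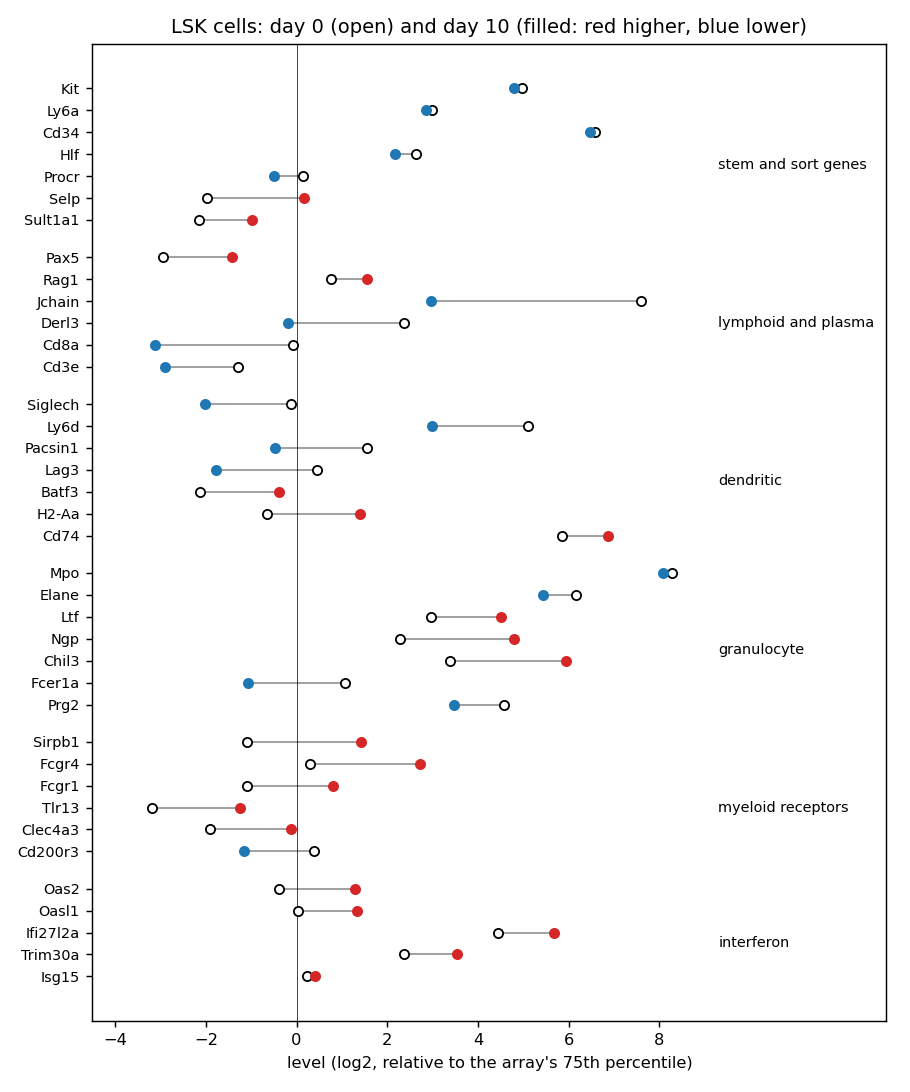
Levels of 38 genes in LSK cells at day 0 (open circles) and day 10 (filled circles, red if higher and blue if lower), in log2 units relative to each array's 75th percentile, in 6 groups; each line joins the 2 arrays of 1 gene, and Mpo was saturated. Secondary granule genes such as Ngp move from 2.28 to 4.80, whereas Jchain moves from 7.60 to 2.96.

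Interferon-stimulated genes were higher at day 10 as a group. Of 42 measured genes of the type I interferon response, 39 were above 0, beside 49.3% of all genes, 4 were at least 2-fold higher beside 1.46%, and none was 2-fold lower. The median was 0.62, and 0.50 after normexp. Most single differences were thus under 2-fold, and nearly all lay on the same side of 0.

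Oas2, an enzyme that senses double-stranded RNA, was at -0.39 and 1.29, a difference of 1.69. Oasl1, its relative, was at 0.03 and 1.34, and Ifi27l2a at 4.44 and 5.67, with probes at 1.23 and 1.42. Trim30a, a ubiquitin ligase, was at 2.37 and 3.53, and its second probe gave 0.90. Those 4 genes were the members past 2-fold. Oas1a was at 1.55 and 2.54, Dhx58, an RNA helicase, at 0.35 and 1.32, and Xaf1 at 0.08 and 1.04. Irf7, the factor that amplifies interferon production, was at -1.63 and -0.74.

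Some classical members differed less. Isg15, a ubiquitin-like modifier, was at 0.23 and 0.40, a difference of 0.17 that the spike-in shift brings to about 0. Stat2 differed by -0.15, Isg20 by -0.16 and Ifit1 by 0.31 at a low level. Bst2 was the lowest at -0.62. Ifnar1, a chain of the interferon receptor, differed by 0.50, and Ifnb1 itself was above background on neither array.

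Interferon genes are known to respond through a promoter element, and 4 promoters are shown: those of Isg15, Oas1a and Trim30a, members of this list at differences of 0.17, 0.99 and 1.15, and that of H2-Aa, the highest member of the class II list described below. Each is the 250 bases before the annotated start, from RefSeq on the GRCm38 build, in the direction of transcription. Capitals mark GAAANNGAAA, the core of the interferon-stimulated response element, on either strand, and in H2-Aa they mark CTGATTGG, the Y box of MHC class II promoters.
Trim30a (chr7:104465194-104465443, minus strand): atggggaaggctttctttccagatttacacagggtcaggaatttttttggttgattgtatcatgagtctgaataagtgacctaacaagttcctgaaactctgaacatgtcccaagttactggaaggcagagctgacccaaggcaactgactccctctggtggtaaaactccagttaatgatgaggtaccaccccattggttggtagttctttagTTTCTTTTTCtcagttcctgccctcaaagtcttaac
Oas1a (chr5:120907526-120907775, minus strand): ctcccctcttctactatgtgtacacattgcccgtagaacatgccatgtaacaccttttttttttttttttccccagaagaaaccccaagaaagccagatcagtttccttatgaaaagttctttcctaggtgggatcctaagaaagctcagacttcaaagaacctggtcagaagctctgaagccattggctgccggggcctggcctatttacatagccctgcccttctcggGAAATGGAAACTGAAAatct
Isg15 (chr4:156200819-156201068, minus strand): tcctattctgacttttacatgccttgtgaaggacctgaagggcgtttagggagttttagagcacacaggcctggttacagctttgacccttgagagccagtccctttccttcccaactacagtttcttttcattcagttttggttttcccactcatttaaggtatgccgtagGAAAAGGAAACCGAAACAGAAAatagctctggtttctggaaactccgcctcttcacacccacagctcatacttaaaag
H2-Aa (chr17:34287824-34288073, minus strand): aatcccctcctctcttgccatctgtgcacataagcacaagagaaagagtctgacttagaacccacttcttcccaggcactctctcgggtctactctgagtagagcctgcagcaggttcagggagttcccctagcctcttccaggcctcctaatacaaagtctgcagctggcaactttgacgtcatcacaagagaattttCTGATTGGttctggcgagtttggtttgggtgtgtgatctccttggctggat
Trim30a holds 1 match, at -36 from the start, Oas1a holds 2 and Isg15 holds 3, with overlap allowed. A second annotated start of Trim30a holds none.

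Across the mouse genome 936 of 27025 genes with a promoter in the table (3.46%) held a GAAANNGAAA match in this window on either strand. In the type I list 10 of 30 matched genes (33.3%) did. In that list the 9 measured genes with it had a median of 0.47, with 7 above 0, and the 20 without it a median of 0.71, with 19 above 0. In the interferon gamma list the order was the other way, with a median of 0.46 over 10 measured genes with a match, 9 above 0, and 0.02 over 9 without one, 5 above 0. Isg15, with 3 matches, differed by 0.17, while Oasl1, whose window holds none, differed by 1.31. A match is only a run of letters, and its absence says nothing about the factor.

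Genes of the interferon gamma response were also mostly above 0, 24 of 30, with a median of 0.35 and 3 past 2-fold. Beside Fcgr1, these were Cd74 and Ciita, both of antigen presentation. The guanylate-binding proteins, which attack intracellular pathogens, were between -0.28 for Gbp8 and 0.77 for Gbp7, with Gbp2 at 0.73. Irgm1, an immunity GTPase, differed by 0.67, and Serpina3g by 0.73 with a second probe at 0.82. Irf1, a transcription factor of the pathway, was at 4.69 and 4.62. Cxcl9, an interferon gamma-induced chemokine, was above background only at day 10, at least 7.94-fold higher. After normexp its difference was 1.35, smaller than that bound. Ifng itself was at -0.69 and -0.36.

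MHC class II genes, which present peptides to helper T cells, differed among themselves. H2-Aa, an alpha chain, was at -0.65 and 1.41, a difference of 2.06, and its other probe gave 0.68. Cd74, the invariant chain, was at 5.86 and 6.86 with 3 probes between 1.0 and 1.27, and H2-Ab1, a beta chain, was at 4.07 and 4.89. Ciita, the coactivator that switches these genes on, was at -1.02 and 0.09 (0.72 after normexp). The peptide loaders H2-DMa, H2-DMb1 and H2-DMb2 were not higher, at -0.48, -0.15 and -0.64. Over the 18 measured members 11 were above 0, 3 were at least 2-fold higher (1 after normexp), and the median was 0.13, which was -0.04 on the spike-in scale. The Y box shown for H2-Aa was found in 3 of the 15 matched genes of this list, beside 4.43% of all genes with a promoter in the table. The same run was found in 6 of 20 matched MHC class I genes and 5 of 21 interferon gamma genes, so it was not particular to this list.

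MHC class I genes were bright and close to 0, with none of 26 past 2-fold and a median of 0.02. H2-D1 was at 6.07 and 6.04, B2m at 6.16 and 6.55, and Tap1 at 6.48 and 6.50. Class I heavy chains are near copies, so these probes may read several genes.

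Among cytokines, 3 of 29 measured were at least 2-fold higher and none lower. Il1b, the inflammatory interleukin-1 beta, was at -1.07 and 0.41, a difference of 1.48. Lif, leukaemia inhibitory factor, was at -2.05 and -0.66, with probes at 1.08 and 1.38, and Tnfsf8 differed by 1.42 (0.46 after normexp). Il6 differed by -0.52, Tnf by 0.05 and Tgfb1 by -0.16. Csf2 was above background only at day 0, at least 2.28-fold higher there, and Tgfb2 only at day 10, at least 3.60-fold higher. Il1a, Il3, Il10, Csf3, Kitl and Epo were above background on neither array.

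The receptors through which progenitors read cytokines were close to 0, with 1 of 44 measured at least 2-fold higher and 2 lower. Il27ra differed by -1.06 and Il13ra1 by 1.15, which normexp left at -0.65 and 0.22. Csf1r was at 2.02 and 2.36, but its 3 probes ran from -0.08 to 1.08. Il11ra1, the interleukin-11 receptor, was at 4.37 and 3.69 by either probe. Of the feedback inhibitors, Socs2, which damps growth hormone and cytokine signalling, was at -0.29 and 1.71, a difference of 2.0. It was the sole member of 23 past 2-fold: Socs1, Socs3 and Cish, induced by many of the same receptors, differed by -0.07, 0.12 and 0.39.

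Chemokines and their receptors lay on both sides, with 4 of 32 measured at least 2-fold higher and 5 lower. Over all genes the shares were 1.46% and 2.62%. The 4 higher members, Cxcl12, Cxcr5, Cxcl16 and Ccr6, were dim, and after normexp none of them was past 2-fold. Ccr9, Pf4 and Cxcr6 were lower at better-measured levels, Cxcr6 at 0.14 and -1.0. Ccl9, made by myeloid cells, was at 4.98 and 5.49, and Ccl5 at 3.51 and 2.76.

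Homing and adhesion genes were mostly close to 0, with 1 of 38 at least 2-fold higher and 2 lower. Selp was the higher one. Cdh1, E-cadherin, was at 0.61 and -1.11, and Itga9, an integrin chain, differed by -1.52 with a second probe at -0.88. Itga4, the alpha chain of the VLA-4 integrin that binds stem cells to the marrow, was at 4.25 and 4.86, and its 3 probes lay between 0.60 and 1.04. Cxcr4, which binds the chemokine Cxcl12 and holds stem cells in place, was at 3.03 and 2.84, but its other probe gave 1.05.

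Toll-like receptors and the NF-kB pathway had 2 of 27 past 2-fold, Tlr13 at 1.95 and Tlr1 at 1.20, both dim (0.72 and 0.42 after normexp). Rel, a subunit of NF-kB, was at -0.71 and 0.24, whereas Rela differed by -0.15 and Nfkbia, the inhibitor that NF-kB induces, by -0.24. Immediate early genes, which respond within minutes of a stimulus, had a median of 0.04. Atf3, a stress-induced repressor, was at -2.17 and 0.15, a difference of 2.33. Klf2, a factor of quiescent lymphocytes and endothelium, was at 5.15 and 4.01 by its brighter probe, while the other gave 0.47. Fos, Jun and Nr4a1 differed by -0.19, -0.01 and 0.35.

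Stroma and matrix genes were dim. Of 15 measured marrow stroma and endothelium markers, 3 were at least 2-fold higher (1 after normexp). Cnn1, calponin of smooth muscle, was at -1.45 and 1.5, the highest difference of the comparison at 2.95 or 7.72-fold. Col1a2 differed by 1.08 and Cxcl12 by 1.01, while Col1a1 differed by -0.06. Kitl, Lepr, Adipoq, Col3a1, Lum, Ibsp and Pdgfra were above background on neither array, and Acta2 was at 4.12 and 4.29.

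Of 23 measured matrix genes, 6 were at least 2-fold lower and 3 higher (1 and 1 after normexp). Over all genes the shares were 2.62% and 1.46% (0.91% and 0.449% after normexp). Timp2, a metalloproteinase inhibitor, was among the lower ones, at 2.74 and 1.54. Spp1, osteopontin, was at 0.53 and -0.50, and Bgn, biglycan, at -0.49 and -1.70. Sparc differed by -1.83, with another probe at -0.17, and Htra3, a secreted protease, by 2.43, with another probe at -0.02.

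Cell cycle genes did not differ by 2-fold in any list examined. Of 32 cyclins and cyclin-dependent kinases, none was past 2-fold and the median was 0.00. Mki67, the Ki-67 proliferation antigen, was at 6.02 and 6.19, with a second probe at 0.31. Ccnb1, cyclin B1 of mitosis, was at 2.11 and 2.66, and Ccnb2 at 4.67 and 4.90, both probes at 0.23. Ccnd3 was at 6.03 and 5.23 and Ccnd2 at 4.81 and 4.47, while Cdk6 was at 3.63 and 3.97. Cyclin B and D genes thus lay on different sides of 0.

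Of 43 DNA replication genes, none was past 2-fold and the median was -0.09. The helicase subunits Mcm6 and Mcm7 were at 6.84 and 6.13 at day 0 and 7.08 and 6.42 at day 10, while Mcm5 was at 5.35 and 5.10. Of 44 mitosis and spindle genes, 25 were above 0, with a median of 0.15 that was -0.02 on the spike-in scale. Knl1 and Ndc80 of the kinetochore were the largest on well-measured probes, at 0.67 and 0.59, and Plk1 differed by -0.25. The summed mitotic level was 8.77 and 8.80. The inhibitors Cdkn1a and Cdkn1b, which hold stem cells at rest, each differed by 0.01.

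DNA damage genes were close to 0. Of 30 targets of p53, the factor activated by radiation damage, 1 was at least 2-fold higher and the median was -0.02. Pmaip1, which encodes the death-promoting protein Noxa, was at 1.86 and 3.28, a difference of 1.41. Cdkn1a, Bax, Bbc3 and Mdm2 differed by 0.01, -0.36, -0.17 and 0.40, and Ccng1 by 0.63 with a second probe at 0.01. None of 41 repair genes was past 2-fold. In the BCL2 family, Bcl2a1a, a survival protein of myeloid cells, was the other member past 2-fold, at 0.55 and 1.72, and it has near copies that its probe may also read.

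Metabolic and housekeeping lists had no member past 2-fold for cholesterol synthesis (29 genes), glycolysis (28), oxidative phosphorylation (43) and antioxidant genes (37). Of 49 cytosolic ribosomal protein genes 24 were saturated, which hides differences, and the other 25 had a median of 0.05 with none past 2-fold. The lowest glycolytic genes were Pfkp at -0.88 and Ldhb at -0.84, and Gapdh was at 7.32 and 7.70. The 20 brightest named genes of each array, nearly all ribosomal protein genes such as Rps27, were saturated and have no order. In ribosome biogenesis, Mycn, a growth-promoting factor of the Myc family, was at 0.91 and -0.27, while Myc was at 4.13 and 4.36. Of 33 unfolded protein genes, Derl3 and Chac1 were 2-fold lower, Chac1 at -1.52, and Hspa5, the main chaperone of the endoplasmic reticulum, was at 5.10 on both arrays. Hspa1a, the inducible heat shock protein, was at -0.88 and -2.19, with probes at -1.64 and -1.31.

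In developmental signalling pathways, 2 of 28 measured Notch and Wnt genes were at least 2-fold lower and none was 2-fold higher. Of 30 measured TGF-beta and BMP genes, 1 was higher and 1 lower. Over all genes, 1.46% were higher and 2.62% lower. Wnt10a, a Wnt ligand, was at -0.46 and -2.65, and Dtx1, a Notch pathway regulator, at -1.39 and -2.67. Lef1, a nuclear partner of Wnt signalling, was at 3.23 and 3.96, and Ctnnb1, its coactivator beta-catenin, differed by -0.01. Of the TGF-beta and BMP pathway, Dand5, a secreted antagonist, was at -2.28 and 0.51, a difference of 2.79, and Bmp1, a protease, was at -0.37 and -1.98. Tgfbr2 and Smad2, a receptor and a messenger of the pathway, differed by -0.10 and 0.11.

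Outside these lists, the largest upward differences included Apoc2, a lipoprotein cofactor, at 0.97 and 2.94, and Pparg, a lipid-sensing nuclear receptor, at -0.80 and 0.94. Alpl, alkaline phosphatase, was at -0.94 and 0.62, and Itgb2l, a leukocyte integrin chain, at -1.94 and -0.12. Serpina3f, a protease inhibitor, differed by 2.01 and 1.36 by its 2 probes, and Clgn, a chaperone, by 1.98 and 2.28. Igf2bp3, an RNA-binding protein of fetal cells, differed by 1.26 and 1.41, Qsox1 by 1.20 and 1.22, and Gfra1, a receptor subunit, by 1.02 and 1.63, all at low levels. Rmrp, the RNA part of a ribonuclease, was at 1.11 and 2.66. Of 2 entries for Med13l, a Mediator subunit, 1 differed by 1.64 and the other by 0.04.

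The downward differences reached further. The lowest, -5.64 by 1 measured probe at 2.61 and -3.03, belonged to an entry that the files name only by a transcript identifier. Asb2, a ubiquitin ligase adaptor, was at 0.81 and -3.78, a difference of -4.59, but its other probe gave 0.31. Etv1, an ETS family factor, was at 0.39 and -3.0 by the 1 of its 2 probes measured on both arrays. The mean over both probes differed by -1.27. Cd209d, a lectin, differed by -3.29, Npdc1 by -2.82 and Slc41a2, a magnesium transporter, by -2.75. Ly6k differed by -2.43 and Klk1b5, a kallikrein, by -2.85. Phkb, Klhl3 and Zfp618 differed by -2.48, -2.77 and -2.26 by 1 probe and by 0.02, -0.17 and -0.19 by the other, so for these the probes disagree. Where probes agreed, Pacsin1, a membrane-bending protein of plasmacytoid dendritic cells and neurons, was at 1.56 and -0.47, with probes at -2.14 and -2.03. Lag3, an inhibitory receptor of lymphocytes, was at 0.45 and -1.77. Krt8, Tmcc3, Ddr1 and Ell2, the last a factor of immunoglobulin secretion, had both measured probes between -1.75 and -1.06.

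A further 1438 genes were above background on 1 array, of which 86 had a bound of 2-fold or more upward and 203 a bound of 2-fold or more downward at day 10. The largest upward bounds were Atp6v0e2, a proton pump subunit, 31.9-fold or more, the homeobox genes Hoxc5, 13.1-fold or more, and Nkx1-1, 8.98-fold or more, and Cma1 and Cxcl9. The largest downward ones beside Tnfrsf17 were Vmn2r-ps38, a receptor pseudogene, 34.4-fold or more, Sytl2, 14.4-fold or more, Enthd1, 12.4-fold or more, and Klk9, 11.6-fold or more. With these counted, 1.83% of 17917 genes were higher and 3.54% lower.

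The CD45-negative arrays differed far more between the days, with 23.6% of 14500 genes at least 2-fold higher and 17.9% lower. Over the 14206 genes measured on all 4 arrays, 171 were 2-fold higher in LSK cells. Of these, 80 (46.8%) were also higher in the CD45-negative cells, and they were 2.37% of the 3375 genes higher there. A further 28 (16.4%) were lower there, beside 17.2% of all 14206 genes. Of 257 genes lower in LSK cells, 94 (36.6%) were lower and 108 (42.0%) higher in the CD45-negative cells, beside 17.2% and 23.8% of all 14206 genes. These were 3.86% of the 2438 genes lower there and 3.20% of those higher there.

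Some gene groups differed in opposite directions in the sorts and others in the same direction. Jchain differed by -4.63 in LSK cells and 6.30 in CD45-negative cells, and Derl3 by -2.56 and 4.12. The erythroid list had a median of -0.62 in LSK cells and -3.93 in CD45-negative cells, and the type I interferon list 0.62 and 0.63. The T cell list had -0.73 and 3.67, and the plasma cell list -0.34 and 2.63. These medians cover members above background on both LSK arrays, with no such filter on the CD45-negative arrays. Cd8a, for example, was not above background in CD45-negative cells at day 0, measured at -5.11. No median over all genes of the CD45-negative arrays is given to set them against. These sorts were each 1 array a day, so the difference between them was not tested.

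**Figure D4:**
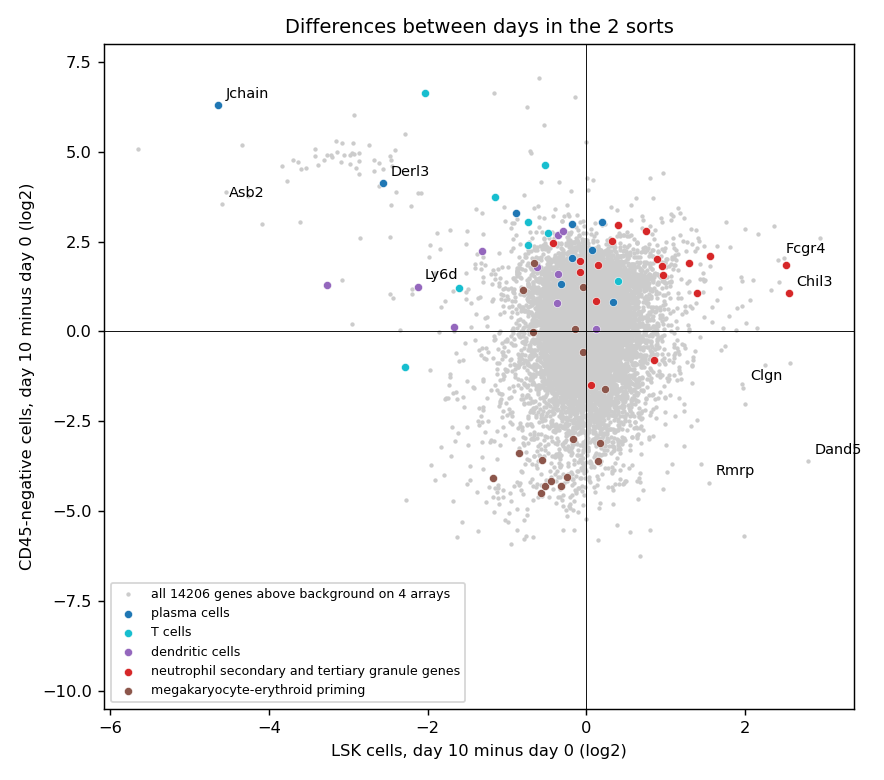
Day 10 minus day 0 difference in CD45-negative cells (vertical axis) against that in LSK cells (horizontal axis), in log2 units, for the 14206 genes measured on all 4 arrays, with 5 lists coloured. The vertical spread is wider than the horizontal one, and Jchain and Derl3 of the plasma cell list lie at the upper left, lower in LSK cells and higher in CD45-negative cells.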

How the data were processed

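Labelled RNA (500 ng of total RNA, oligo-dT primed, Cy3) was hybridised to 4 one-colour Agilent mouse arrays. Spots were read with Agilent Feature Extraction 10.5.1.1 (protocol GE1_105_Dec08), per the file headers, which also give mm9 as the design's build. The deposited intensity values are processed signals, with local background subtracted, and the raw mean and background signals, per the file headers. The deposited flags for background, saturation and control spots, of another kind, were used as filters. The deposited series table holds log2 values whose 75th percentile is near 0 on each array; the authors' further steps are not given in the sources used here.

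The log2 of each spot's processed signal was taken and averaged over the spots of 1 probe. Each array's 75th percentile over all probes other than controls was then subtracted (Python 3.11.15, pandas 2.3.3, and limma 3.58.1 in R 4.3.3 for alternatives). Outlier spots were left out. Control spots and 20679 noncoding probes were not counted as genes. Symbols came from RefSeq accessions for 69.3% of 40628 gene probes, and from the array otherwise. A bound sets the bright array's level against the higher of the lowest level above background and the dim probe's own. It holds for these levels and not under another background correction. Above background were 54.5% and 56.6% of 61307 probes at day 0 and day 10; replicate spots of a probe had an SD of 0.137 and 0.182, and the number of arrays limits the precision. The counting of differences was tested on simulated data.

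With 1 array a group there was no test. The members and lists were chosen with earlier results of these data known, so lists are described by counts and medians. Genes named were the 25 largest differences each way that were 2-fold the same way under 4 other processings (clone names left out), the 15 each way with agreeing probes, the 5 largest bounds each way, the 20 brightest, up to 6 leading members of each list and any other member whose level the description needed, and a fixed set of stem cell genes. Alternatives changed background correction, normalization, scaling, filters, the probe of a gene and the size threshold. Some genes that these rules name are not reported here.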

Additional observations from a re-analysis of the deposited data

Results flagged for a closer look

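Of the named genes measured on all 4 arrays, 29 were at least 2-fold different between the days in both sorts. Of these, 16 differed in opposite directions in LSK and CD45-negative cells. Opposite directions were also common over all 14206 genes measured on the 4 arrays. Of those 2-fold lower in LSK cells, 108 were 2-fold higher and 94 lower in CD45-negative cells. Of those 2-fold higher in LSK cells, 28 were lower and 80 higher. The 16 are therefore not read as particular to the named genes. Each sort is 1 array a day, so the difference between the sorts was not tested. Of the entries picked by immunoglobulin names and measured on all 4 arrays, 8 of 8 were at least 2-fold higher at day 10 in CD45-negative cells. The share over all 14206 genes was 23.8%. These entries were chosen after values were seen, and the variable segments among them are near copies that a probe may not separate. The plasma cell list as a whole had 2 of 12 members 2-fold lower in LSK cells, beside 2.62% of all genes. Jchain differed by -4.63 in LSK cells and 6.30 in CD45-negative cells, Igh-6 by -3.63 and 4.73, and Igh-VJ558 by -2.67 and 4.46. Derl3 differed by -2.56 and 4.12, and Igk-V21-12 by -2.21 and 3.50. A further heavy chain variable segment differed by -3.13 and 4.99 and a further kappa segment by -2.08 and 3.87. The kallikreins had the same pattern, Klk1 at -3.27 and 1.30 and Klk1b5 at -2.85 and 2.59. The second LSK probe of Klk1 gave -0.33. Asb2 was at -4.59 and 3.54 and Phkb at -2.48 and 1.04, but their second LSK probes gave 0.31 and 0.02. The pattern was also measured for Wnt10a at -2.19 and 1.05, and for Ly6d at -2.12 and 1.25. The reverse pattern, higher at day 10 in LSK cells and lower in CD45-negative cells, was measured for Dand5 at 2.79 and -3.61, Clgn at 1.98 and -1.56, and Rmrp, a noncoding RNA, at 1.54 and -4.21.

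Probes for noncoding transcripts were outside the comparison of genes. Of 8950 measured on both LSK arrays, 172 were past 2-fold upward and 376 downward at day 10, together 6.12%, with a median difference of -0.08.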

How the results depend on the processing

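The 241 genes at least 2-fold higher and 432 lower depended on processing mainly through dim probes. Higher and lower counts were 74 and 150 with normexp background correction, 1461 and 1969 with no detection filter, 655 and 851 for genes above background on at least 1 array, 87 and 145 where the level was at or above 0 on at least 1 array, and 413 and 808 with noncoding probes counted. At 1.5-fold they were 1039 and 1225, and at 3-fold 47 and 155. On the spike-in scale 141 genes were higher. The share of 2-fold genes that were higher, 35.8%, was 39.8% with quantile normalization, 46.3% with a median shift, 18.4% on the spike-in scale, 42.6% with no filter, 43.5% for genes above background on at least 1 array, 45.9% at 1.5-fold and 23.3% at 3-fold; the cause of these moves was not tested. Other settings (loess, another percentile, mean of probes, another choice of probe, saturated genes out, the deposited table) kept both counts within 1.5 times. Over all alternatives 723 list medians moved by less than 0.228, the SD between replicate spots of a probe combined over both arrays, and 5 moved by more. Of the named genes' values 1024 moved by less than that and 87 by more. These totals include settings that could not move a named gene past 0.228. Those were shifts of all differences by a smaller constant, and changes of filter alone. Normexp moved 63 of the named genes' values by more and 25 by less. The mean of all probes moved 24 by more and 64 by less. No paired analysis was possible because each group has 1 array, and leaving out a replicate was not possible for the same reason. Genes below a level of about -2 lie near background, which limits their differences.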

Other observations

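Xist, the RNA that coats an inactive X chromosome, was above background in LSK cells only at day 10, where its level was -1.96, at least 3.98-fold higher than at day 0. In CD45-negative cells Xist was not above background at day 0 (measured at -4.53) and was at 3.81 at day 10. The Y-linked genes Ddx3y, Eif2s3y, Kdm5d and Uty were above background in LSK cells at both days, and Ddx3y was at 1.24 and 0.92. These genes were chosen after their values were seen, and the sex of the mice is not given in the sources used here.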
